A study of Drosophila melanogaster with 6 samples.

Results

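The sex determination and dosage compensation genes of Drosophila melanogaster were examined in sorted clock neurons, the neurons whose molecular oscillators time daily behaviour. The group held 9 genes, taken by their symbols from the 17868 genes listed: Sxl, tra, dsx and fru of the sex determination pathway, and msl-1, msl-2, msl-3, mle and mof of the male-specific lethal (MSL) complex. All 9 were found, and all 9 passed the filter on low counts that left 8708 genes for testing. The control flies carried the driver ClkGAL4, which is active in clock neurons, with the nuclear marker UAS-GFP-NLS over a wild-type chromosome. The Prp3-RNAi flies carried the same driver and marker over UAS-Prp3-RNAi (stock BDSC#55256), a hairpin transgene against the spliceosome gene Prp3. The driver thus expressed the hairpin in the same cells that were sorted, and the control carried no hairpin of another sequence. Both groups held 3 libraries of polyadenylated RNA from adult brain, each from about 2000 live cells sorted at zeitgeber time (ZT) 14, that is 14 h after lights-on, following 5 days of 12 h light and 12 h dark. The titles assign every control to a Prp3-RNAi partner, which makes 3 pairs. The labels give neither the sex nor the age of the flies.

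In flies, sex is set cell by cell. Female cells make active Sxl protein, a splicing factor that maintains its own female splicing and directs that of tra. Tra protein, with its partner Tra2, then directs female splicing of dsx and fru, 2 genes that act in sexual anatomy and behaviour. Male cells lack active Sxl and therefore translate msl-2, and the MSL complex with the noncoding RNAs roX1 and roX2 binds the male X chromosome and raises its transcription. The male form of Fru is known from some of the lateral and dorsal clock neurons. Most of this pathway acts through alternative splicing and translation. The counts used here sum all transcripts of a gene, so the male and female forms were not told apart.

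Gene counts per library ran from 24477244 to 32551739. The sorted cells carried clock and neuron transcripts. In the 6 libraries tim lay between 556 and 829 CPM, a gene's reads relative to the scaled total of its library, and nSyb between 1107 and 1912 CPM. The clock genes per and Clk were scarcer, at 9.99 to 33.3 CPM and 9.08 to 28.5 CPM. The neuropeptide gene Pdf, made by the lateral clock neurons, was uneven: it was at 15931, 2564 and 17350.1 CPM in the controls of pairs 1 to 3, against 302, 155 and 19927 CPM in their knockdown partners. Within pairs it differed by -5.72, -4.05 and 0.20 on the log2 scale, so only pair 3 had like levels of this marker. The gene cry, which codes for the blue-light sensor of clock neurons, was at 222, 189 and 105 CPM in the controls of pairs 1 to 3, against 85.1, 81.0 and 90.8 CPM in their knockdown partners, so the groups did not overlap (-0.95, SE 0.26, unadjusted p = 0.0128, adjusted p = 0.428, edgeR). Of the 9 clock neuron markers, 6 had a log2 fold change below 0, with a median of -0.21 over the 9. The genes cry, vri and cwo were lower in all 3 pairs, and vri, like cry, did not overlap between the groups. The summed level of 6 glia markers was 191 to 667 CPM in controls and 244 to 441 CPM in Prp3-RNAi. The glial factor repo was at no more than 1.56 CPM, and moody and wrapper at no more than 8.51 CPM. Others were higher: nrv2 was at 119 to 141 CPM and alrm at 3.36 to 43.3 CPM. Gs2 was at 222, 61.1 and 501 CPM in the controls of pairs 1 to 3, against 105, 93.3 and 257 CPM in their knockdown partners. The summed level of 5 photoreceptor markers was 259 to 349 CPM in controls and 236 to 363 CPM in Prp3-RNAi. Most of this sum was norpA, at 206 to 354 CPM, while trp was at 0 to 2.89 CPM and Rh3 at 0 to 1.28 CPM. Another of the 5, ninaC, was at 0.0313, 0.0707 and 0.216 CPM in the controls of pairs 1 to 3, against 7.54, 2 and 3.01 CPM in their knockdown partners (5.26, SE 1.55, unadjusted p = 0.0177, adjusted p = 0.435, edgeR). The opsin gene ninaE ran from 0 to 54.0 CPM without following the groups. Among 3 hemocyte markers, Hml and NimC1 reached 45.8 and 29.0 CPM in control library 3 and no more than 0.188 CPM in any other library, and He had no count. The targeted gene Prp3 was lower in all 3 pairs, at 45.5, 68.7 and 29.3 CPM in the controls of pairs 1 to 3, against 27.0, 28.3 and 10.8 CPM in their knockdown partners. The groups did not overlap, and the log2 change was -1.16 (SE 0.24, unadjusted p = 0.00385, adjusted p = 0.384, edgeR's quasi-likelihood test).

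The 9 genes covered a wide range of levels in these neurons. Levels of different genes were compared as CPM per kb of annotated exon, because a longer transcript yields more reads. By this measure tra was the most abundant, with a median of 72.3 CPM per kb over the 6 libraries (69.5 to 78.4), followed by Sxl with a median of 37.4 (29.4 to 48.3). Both stood high among the tested genes, at the 84.3 and 73.2 percentile of level per length. The RNA helicase gene mle (median 12.6 CPM per kb), msl-3 (12.0) and fru (11.7) formed a middle group between the 48.7 and 50.3 percentile. The msl-2 (5.88 CPM per kb), mof (4.33) and msl-1 (3.59) transcripts were scarcer, between the 27.7 and 33.7 percentile. The dsx transcript was barely detected, with a median of 0.0892 CPM per kb and a place at the 0.5 percentile.

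Neighbours in this order, ranked by mean log2 level, were compared within libraries with an exact two-sided sign-flip permutation test over the 6 libraries, control and Prp3-RNAi together. The ranking came from the same 6 libraries, which set the direction of each comparison beforehand. The p-values therefore describe how steady each gap was between libraries and are no independent test of the order. The level per length of tra was above that of Sxl in 6 of 6 libraries (mean log2 difference 0.95, SD 0.30). That of Sxl was above mle in 6 of 6 (1.61, SD 0.45), that of fru was above msl-2 in 6 of 6 (1.30, SD 0.86), and that of mof was above dsx in 6 of 6 (5.28, SD 2). Each of these 4 exact tests gave a p-value of 0.0312, the smallest that 6 libraries allow, and 0.0624 after Benjamini-Hochberg adjustment over the 8 neighbours. The other neighbours, mle and msl-3, msl-3 and fru, msl-2 and msl-1, and msl-1 and mof, did not differ beyond their spread (exact permutation p-values of 0.5 to 1). The exonic length counts every annotated exon, which for fru came to 18433 bases over 15 annotated transcripts. The level per length is therefore a low estimate for genes whose transcripts each use few of their exons.

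**Figure D1:**
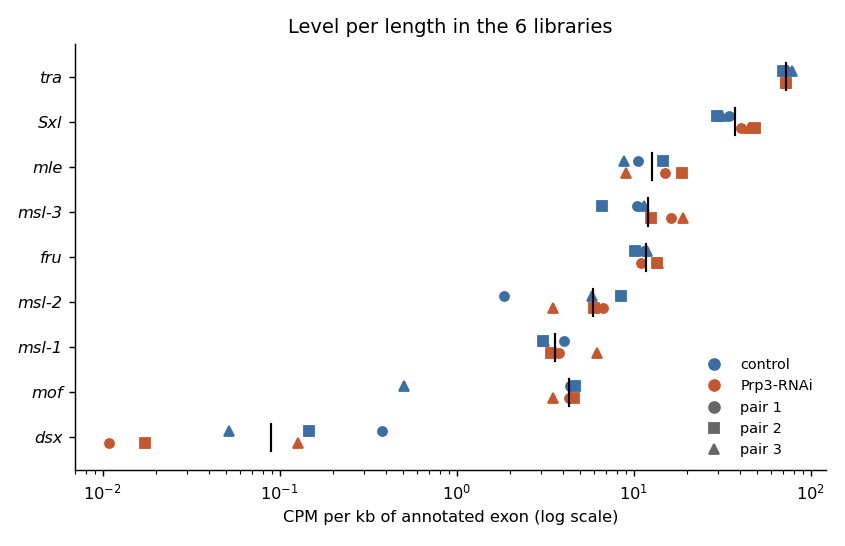
Level of the 9 genes in CPM per kb of annotated exon on a log axis, 1 point per library (blue, control; orange, Prp3-RNAi; symbol, pair), with a black bar at the median of the 6 libraries. The tra points lie between 69.5 and 78.4, mle, msl-3 and fru overlap around 12, and dsx lies below 0.4 in every library.

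The question of the only comparison in the design was how a lower level of Prp3 changes the transcripts of clock neurons. Across the 8708 tested genes 0 were called at an adjusted p-value under 0.05 (0% of the tested genes) by edgeR's quasi-likelihood test with the pair as a block. An unadjusted p-value under 0.05 was found for 869 genes, or 9.98%, with 4.71% higher and 5.27% lower in Prp3-RNAi. Without the block 8 genes were called (0.0919%) and 421 reached the unadjusted level (4.83%), while DESeq2 with the block called 380 (4.36%). None of the 9 genes was called by edgeR. Of the 9, 2 reached an unadjusted p-value under 0.05, Sxl and msl-3, both higher in Prp3-RNAi. The same 2 were the only ones of the 9 whose groups of 3 libraries did not overlap, which held for 11.6% of the tested genes, 6.26% being higher and 5.32% lower. The lower cry and vri and the higher ninaC also separated the groups, and their part in the values of Sxl and msl-3 was not tested. The log2 change was above 0 for 7 and below 0 for 2, against 4430 above and 4278 below 0 over all genes tested. The median of the 9 was 0.30, against 0.01 over all genes tested. Of the 7, mof fell to -0.02 without pair 3 and msl-2 to -0.61 without pair 1. Higher levels in all 3 pairs were found for 3 of the 9 (Sxl, msl-3 and mle), against 17.6% of the tested genes. The median of the 9 differed between pairs, at -0.01 in pair 1, 0.15 in pair 2 and 0.50 in pair 3.

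**Figure D2:**
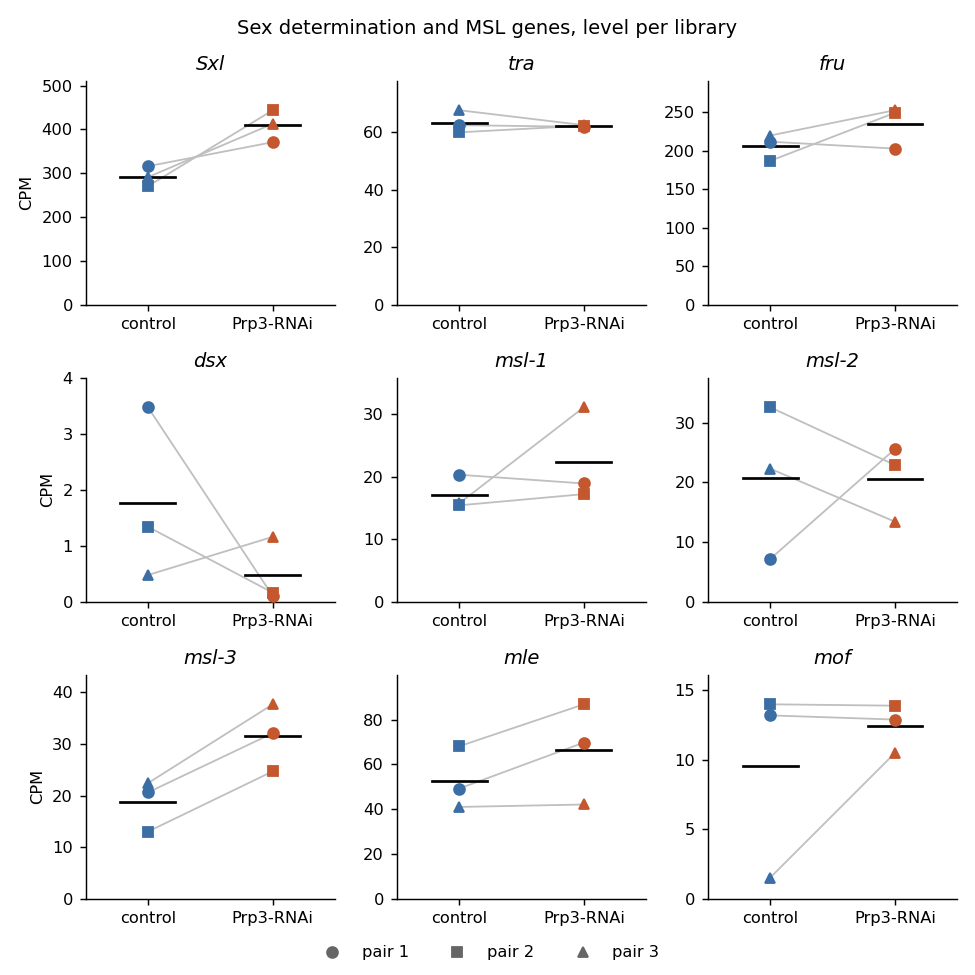
Level in CPM of each of the 9 genes in the 3 control and 3 Prp3-RNAi libraries, on axes that start at 0. Symbols mark the pair, grey lines join paired libraries and black bars are group means. The groups are apart for Sxl and msl-3, while mof has 1 low control library at 1.51 CPM and dsx stays at or below 3.48 CPM.

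Among the sex determination genes, Sxl (FBgn0264270, chromosome X, 7074550 to 7098053, minus strand, build BDGP6.54) was higher in each Prp3-RNAi library than in every control library. It was at 316, 270.4 and 291 CPM in the controls of pairs 1 to 3, against 371, 444 and 413 CPM in their knockdown partners. The spread within a group was small, with a coefficient of variation of 7.73% in control and 8.92% in Prp3-RNAi. The group means were 292 ± 22.6 CPM and 409 ± 36.5 CPM (SD, n = 3 each). On the log2 scale, the fold change was 0.48 (SE 0.13, unadjusted p = 0.0112, adjusted p = 0.427, edgeR), and the pairs differed by 0.23, 0.72 and 0.50. DESeq2 called Sxl (log2 fold change 0.47, adjusted p-value 0.0153), and over the 8 alternatives the adjusted p-value ran from 0.0153 to 0.834. The annotation lists 25 transcripts and 27 introns for Sxl, the most of the 9 genes, and the female and male forms among them cannot be told apart in these counts. Exons of Sxl share 161 bases, summed, with other annotated genes, mir-4956 among them.

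The splicing factor gene tra (FBgn0003741, chromosome 3L, 16590059 to 16591050, minus strand), the splicing target of Sxl, was the steadiest of the 9. It was at 62.4, 59.9 and 67.6 CPM in the controls of pairs 1 to 3, against 61.8, 62.2 and 62.4 CPM in their knockdown partners. The groups overlapped, and the pairs differed by -0.01, 0.05 and -0.11 on the log2 scale. The fitted log2 change was -0.03 (SE 0.15, adjusted p = 0.971, edgeR), and its sign changed without pair 3. Its exons share 74 bases with those of l(3)73Ah on the opposite strand, so its counts are less certain there.

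The gene fru (FBgn0004652, chromosome 3R, 18414273 to 18545586, minus strand) codes for zinc finger transcription factors whose male form is needed for courtship. It was at 212, 187 and 220 CPM in the controls of pairs 1 to 3, against 203, 249.6 and 253 CPM in their knockdown partners. The Prp3-RNAi libraries of pairs 2 and 3 lay above all control libraries and that of pair 1 lay among them. The log2 fold change was 0.18 (SE 0.13, adjusted p = 0.684, edgeR), and it was 0.32 without pair 1 and 0.07 without pair 2. The coefficient of variation of fru was 8.33% in control and 12.0% in Prp3-RNAi.

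The gene dsx (FBgn0000504, chromosome 3R, 7924323 to 7967408, minus strand), a transcription factor gene of sexual anatomy, had few reads, and its values varied several-fold between libraries of a group. Its counts were 111, 38 and 11 in control libraries 1 to 3 and 3, 5 and 34 in Prp3-RNAi libraries 1 to 3, or 3.48, 1.34 and 0.476 CPM against 0.0996, 0.159 and 1.16 CPM. The groups overlapped because Prp3-RNAi library 3 was above control library 3. The fitted log2 fold change was -2.49 with an SE of 2.17 (adjusted p = 0.752, edgeR), and the pairs differed by -4.39, -2.63 and 1.18. It ran from -4.04 without pair 3 to -0.84 without pair 1. The difference between the groups was within the spread between libraries. Exons of dsx share 169 bases with those of lds on the opposite strand.

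Among the MSL genes, msl-3 (FBgn0002775, chromosome 3L, 7123213 to 7125533, minus strand), which codes for a chromodomain protein that helps spread the complex along the X, was higher in every Prp3-RNAi library than in every control library. It was at 20.6, 13 and 22.4 CPM in the controls of pairs 1 to 3, against 32.1, 24.7 and 37.7 CPM in their knockdown partners. The pair differences of 0.64, 0.92 and 0.75 were alike, although library 2 was the lowest of its group in both. The group means were 18.7 ± 4.99 CPM and 31.5 ± 6.52 CPM (SD, n = 3 each). On the log2 scale, the fold change was 0.77 (SE 0.25, unadjusted p = 0.025, adjusted p = 0.453, edgeR). It ran from 0.70 to 0.85 over the 8 alternatives, none of which called msl-3. Exons of msl-3 share 85 bases with those of form3 on the opposite strand.

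The gene mle (FBgn0002774, chromosome 2R, 5974857 to 5980778, minus strand) codes for the helicase that remodels the roX RNAs. It was at 49.2, 68.1 and 41.0 CPM in the controls of pairs 1 to 3, against 69.8, 86.9 and 42.1 CPM in their knockdown partners. The libraries of a pair ranked alike in both groups, with pair 2 highest and pair 3 lowest, and the groups overlapped. The fitted log2 change was 0.30 (SE 0.17, adjusted p = 0.617, edgeR), with pair differences of 0.51, 0.35 and 0.04.

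The gene msl-1 (FBgn0005617, chromosome 2L, 18683720 to 18688800, minus strand), the scaffold of the complex, was at 20.3, 15.4 and 15.7 CPM in the controls of pairs 1 to 3, against 18.9, 17.2 and 31.1 CPM in their knockdown partners. Prp3-RNAi library 3 stood above the other 5 libraries, which overlapped. Its log2 fold change of 0.34 (SE 0.36, adjusted p = 0.804, edgeR) rested on pair 3, with a difference of 0.98. It was 0.03 without pair 3 and 0.58 without pair 1.

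The gene msl-2 (FBgn0005616, chromosome 2L, 3462218 to 3466112, minus strand) codes for the male-limited subunit, whose translation Sxl represses in females. It was at 7.14, 32.6 and 22.3 CPM in the controls of pairs 1 to 3, against 25.6, 22.9 and 13.4 CPM in their knockdown partners. The lowest and the highest library were both controls, and the pair differences of 1.83, -0.50 and -0.74 did not share a sign. The log2 fold change was 0.15 (SE 0.61, adjusted p = 0.956, edgeR) and -0.61 without pair 1. Exons of msl-2 share 133 bases, summed, with other annotated genes, mir-4971 among them.

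The gene mof (FBgn0014340, chromosome X, 5873840 to 5876853, minus strand) codes for the histone acetyltransferase of the complex and has no annotated intron. It was at 13.2, 14 and 1.51 CPM in the controls of pairs 1 to 3, against 12.9, 13.9 and 10.5 CPM in their knockdown partners. Apart from control library 3, the libraries lay close together, and the log2 fold change of 0.83 (SE 0.77, adjusted p = 0.768, edgeR) became -0.02 without pair 3. Control library 3 held 35 reads of mof, and it was also the library with the hemocyte transcripts Hml and NimC1. Their part in the low value was not tested.

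The partners of these proteins were read from 6 lists with 55 genes in all, of which 49 were tested. At an unadjusted p-value under 0.05, 6 of the 49 were higher and 5 lower in Prp3-RNAi, against 4.71% and 5.27% of all tested genes. None was called by edgeR after adjustment. The median log2 fold change of the 49 was 0.08.

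The partner with the smallest p-value was lncRNA:roX1 (FBgn0019661, chromosome X, 3857230 to 3862697, minus strand), a noncoding RNA that is known to accumulate in male cells as part of the MSL complex. It was at 1957, 2366 and 1756 CPM in the controls of pairs 1 to 3, against 1198, 1127 and 1128 CPM in their knockdown partners. The groups did not overlap, and the Prp3-RNAi libraries averaged 1151 ± 40.6 CPM, against 2026 ± 311 CPM in control (SD, n = 3 each). The fitted log2 change was -0.81 (SE 0.11, unadjusted p = 0.000614, adjusted p = 0.254, edgeR), which placed it at rank 21 among the 8708 genes. DESeq2 called lncRNA:roX1 (-0.82, adjusted p = 1.02e-11), and over the 8 alternatives the adjusted p-value ran from 1.02e-11 to 0.809 and the log2 fold change from -0.89 to -0.67. In RNA from sorted pools, fewer cells with a transcript and less of it per cell cannot be told apart. The labels do not give the sex of the flies, so the share of male cells in each library is unknown. Its part in the roX1 and Sxl values was not tested. In pair 3, whose libraries had like levels of Pdf, roX1 differed by -0.64, Sxl and msl-3 by 0.50 and 0.75, and cry by -0.21. That pair was not alike in other markers, with differences of 3.43 for ninaC, -8.8 for Hml and -8.72 for NimC1. The part of the uneven Pdf, cry, vri, ninaC, Hml and NimC1 levels in the roX1, Sxl and msl-3 differences was not tested. Exons of lncRNA:roX1 share 392 bases with those of ec on the opposite strand.

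The second noncoding RNA of the complex, lncRNA:roX2 (FBgn0019660, chromosome X, 11579065 to 11580432, plus strand), was at 249, 197 and 177 CPM in the controls of pairs 1 to 3, against 247, 86.0 and 129.6 CPM in their knockdown partners. Its pairs differed by -0.01, -1.19 and -0.45 on the log2 scale, and the groups overlapped. The log2 change was -0.55 (SE 0.24, adjusted p = 0.538, edgeR), and it was -0.23 without pair 2 and -0.81 without pair 1. The count ratio of roX1 to roX2 was 9.93 ± 2.09 in control and 8.88 ± 4.13 in Prp3-RNAi (exact two-sided permutation p-value 0.8 over 6 libraries, smallest possible 0.1). Both roX RNAs were present in all 6 libraries. The yolk protein genes Yp1, Yp2 and Yp3, targets of Doublesex in the female fat body, had at most 2.01 CPM in any library. These are genes of another tissue, and their level was not read as a sign of sex.

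**Figure D3:**
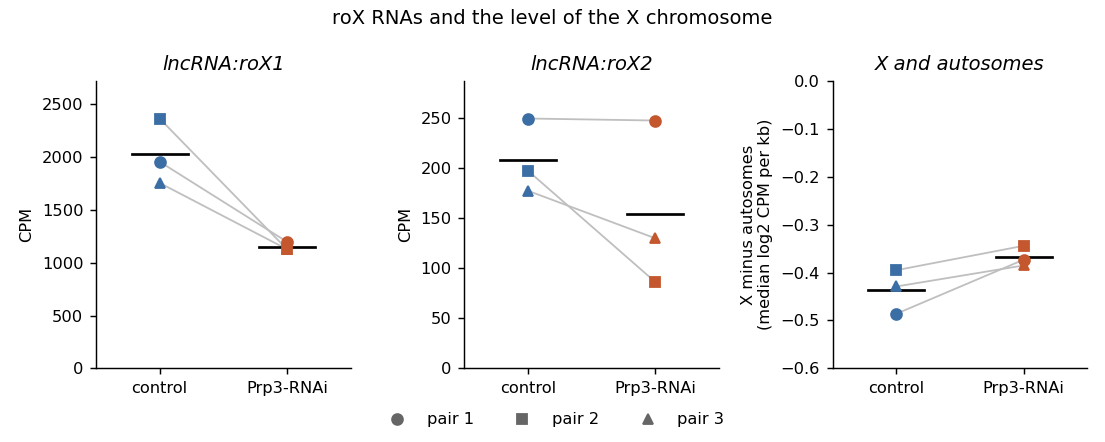
Left and middle, level in CPM of lncRNA:roX1 and lncRNA:roX2 in the 6 libraries on axes from 0. Right, median log2 CPM per kb of X-linked genes minus that of autosomal genes in each library. Symbols mark the pair and black bars the group means. roX1 is at 1756 CPM or above in control and at 1198 CPM or below in Prp3-RNAi, and the X-linked value runs from -0.486 to -0.344.

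Since the MSL complex acts on the X chromosome, the X-linked genes were compared with those of the large autosomal arms. The 1421 tested X-linked genes had a median log2 fold change of 0.012, against 0.006 for the 6739 autosomal ones. The difference of 0.006 was -0.008, 0.039 and 0.042 in pairs 1 to 3. An unadjusted p-value under 0.05 was reached by 8.37% of the X-linked genes, compared with 9.38% to 10.7% on the arms of chromosomes 2 and 3. Within a library, the median level per length of X-linked genes lay below that of autosomal genes. The difference was -0.486, -0.395 and -0.429 on the log2 scale in control libraries 1 to 3 and -0.373, -0.344 and -0.385 in Prp3-RNAi libraries 1 to 3. The gap was narrower in each Prp3-RNAi library than in every control library, by 0.07 on average, which gave an exact two-sided permutation p-value of 0.1, the smallest that 3 against 3 libraries allow. The signed X-linked minus autosomal difference was thus higher in Prp3-RNAi in 3 of 3 pairs (exact p-value 0.25, again the smallest possible). Without scaling per length the groups overlapped, with a difference of 0.038 and an exact permutation p-value of 0.3. The pairs then differed by -0.004, 0.087 and 0.031. The X-linked share of all gene counts was 15.9 ± 0.802% in control and 15.9 ± 0.713% in Prp3-RNAi (SD, n = 3 each).

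Of the 11 listed dosage compensation partners, roX1 included, 1 was higher and 4 were lower at an unadjusted p-value under 0.05, a level that 4.71% (higher) and 5.27% (lower) of all tested genes reached. The kinase gene JIL-1, whose product is enriched on the male X, was at 113 ± 15.5 CPM in controls and 145 ± 23.2 CPM with the hairpin (log2 fold change 0.36, SE 0.12). The topoisomerase gene Top2 was at 77.9 ± 42.4 and 44.0 ± 8.74 CPM (-0.71, SE 0.22), where control library 1 stood high at 127 CPM, and the change was -0.43 without pair 1. Hrb27C, an RNA-binding protein gene, was at 1057 ± 42.3 and 904 ± 18.1 CPM (-0.23, SE 0.08), and its groups did not overlap. The zinc finger gene pzg was at 49.7 ± 14.6 and 35.5 ± 12.4 CPM (-0.50, SE 0.19). Clamp, which codes for the protein that recruits the complex to GA-rich sites and did not reach that level, was at 93.3 ± 32.5 and 103 ± 33.1 CPM (0.17, SE 0.27). Adjusted p for these 5 ran from 0.446 to 0.884 (edgeR), and DESeq2 called Hrb27C (adjusted p-value 0.046).

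The NSL complex shares the acetyltransferase Mof with the MSL complex and acts at promoters in both sexes. Of its 6 other genes listed, 5 had a log2 fold change above 0, as did 4430 of the 8708 tested genes. Of the 6, 4 were higher in all 3 pairs, against 17.6% of the tested genes. The median was 0.43. MBD-R2 was at 24.8 ± 11.4 CPM in controls and 45.0 ± 14.5 CPM with the hairpin (log2 fold change 0.90, SE 0.26), nsl1 at 55.1 ± 5.35 and 79.8 ± 20.7 CPM (0.50, SE 0.17) and Rcd1 at 69.9 ± 25.6 and 92.8 ± 27.1 CPM (0.43, SE 0.14). Groups overlapped for each of the 3, and adjusted p was 0.435 to 0.470 (edgeR).

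The list upstream of Sxl held 9 genes, mostly of the embryonic count of X chromosomes, and 5 were tested. Of the other 4, 1 had no count in any library. The inhibitor gene emc, at 800.5 ± 58.2 CPM in controls and 965 ± 79.5 CPM with the hairpin, was higher by nearly the same amount in each pair (0.28, 0.25 and 0.27; SE of the fit 0.08, unadjusted p = 0.0216, adjusted p = 0.445, edgeR), and its groups did not overlap. DESeq2 called emc with an adjusted p-value of 0.028. All 12 genes of the list of Sxl cofactors were tested, 6 above and 6 below 0. The splicing factor gene Spf45 was at 114 ± 26.4 CPM in controls and 161 ± 14.1 CPM with the hairpin (log2 fold change 0.51, SE 0.14, groups apart, adjusted p = 0.428, edgeR). The snRNP gene snf, whose protein works with Sxl, was at 147 ± 7.49 and 138 ± 14.4 CPM (-0.09, SE 0.11).

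Of the 4 genes listed as partners of Transformer, none reached an unadjusted p-value under 0.05. The groups did not overlap for 1 of the 4, which was lower in all 3 pairs (log2 fold change -0.17, SE 0.11). The gene tra2 was at 66.2 ± 11.2 CPM in controls and 72.3 ± 18.0 CPM with the hairpin (log2 fold change 0.11, SE 0.23). Of the 13 partners and targets of Doublesex and Fruitless, 11 were tested, and 5 were lower in all 3 pairs, against 17.8% of the tested genes. The chromatin cofactor gene bon, whose protein binds Fru, was at 38.4 ± 11.1 CPM in controls and 21.4 ± 5.12 CPM with the hairpin. Its pair differences of -0.87, -0.88 and -0.72 were close to each other (log2 fold change -0.83, SE 0.22, unadjusted p = 0.0121, adjusted p = 0.428, edgeR), and its groups did not overlap. Exons of bon share 1290 bases with those of CG15923 on the opposite strand, and those of Clamp share 502 bases with CG42748. The Dsx cofactor gene ix was at 35.4 ± 7.38 and 34.6 ± 4.19 CPM (-0.02, SE 0.22). Yp3, the only yolk protein gene tested, had an SE of 2.06 on a log2 fold change of 1.31, which was 0.14 without pair 1.

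**Figure D4:**
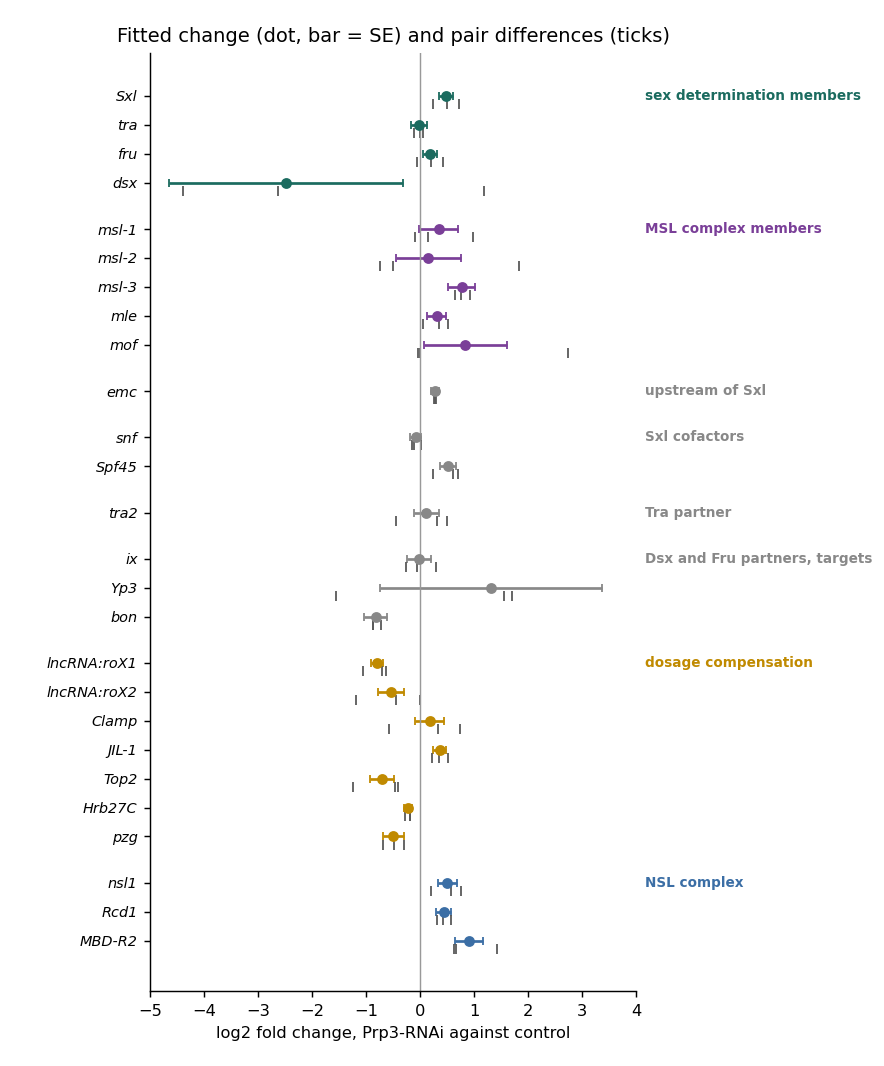
Log2 fold change of Prp3-RNAi against control (dots) with its SE (bars) for the 9 genes and the named partners, grouped by role, and the difference within each of the 3 pairs (ticks below). The ticks of Sxl, msl-3, emc, bon and lncRNA:roX1 fall on 1 side of 0, while those of msl-2 and Yp3 fall on both sides.

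For each of the 9 genes, the tested gene with the most similar pattern was looked up, by Pearson's r of log2 CPM over the 6 libraries among genes with a mean log2 CPM of at least 3. There were 6260 candidates (6261 for dsx) for only 6 libraries, so these are descriptions. The nearest were nmdyn-D7 for Sxl (r = 0.981), HP4 for tra (0.975), eIF3i for fru (0.959) and CG13001 for dsx (0.998). For the MSL genes they were Vps20 for msl-1 (0.991), wda for msl-2 (0.998), RPA3 for msl-3 (0.988), CG7368 for mle (0.998) and CG7044 for mof (0.999).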

How the data were processed

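RNA was sequenced from 6 libraries. Per the submitters' processing notes, the tools were Trim Galore 0.6.7 and STAR 2.7.0a with the build dm6; the counter and annotation are not given in the sources used here. The deposited values are raw read counts per gene, not normalized, taken without regard to strand, since 50.0% to 50.1% of strand-assigned counts fell to 1 strand. Reads that name no gene (18.5% to 24.4%) were left out.

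Counts were tested with edgeR 4.0.16 (R 4.3.3; quasi-likelihood, two-sided, TMM scaling, filterByExpr with min.count 10 and min.total.count 15, Benjamini-Hochberg adjustment over 8708 genes) with the pair as a block. DESeq2 1.42.0 was an alternative. SE is the log2 fold change over the square root of F. CPM are TMM-scaled (log2 CPM with prior count 2). The titles state the pairs but not what a pair shares; deviations from group means correlated at 0.046, 0.266 and 0.236 within pairs. The labels do not say that libraries are separate animals or cultures. The p-values therefore set each difference against the spread among these 6 libraries only. In the fit with the block, that is the spread left after the pairs. Coordinates are from Ensembl release 115, BDGP6.54 (dm6 coordinates), which matched 17161 of 17868 symbols; the X-linked comparison left out unmatched genes. Partners named are lncRNA:roX1, lncRNA:roX2, Clamp, tra2, ix, snf, Yp1 to Yp3 and those at an unadjusted p-value under 0.05. The genes and lists were chosen with earlier results of these data known. No sequence is printed.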

Additional observations from a re-analysis of the deposited data

How the results depend on the processing

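Alternatives were the fit with no replicate block, DESeq2, RLE scaling, looser and stricter low-count filters (1 count; 50 counts in 3 libraries), and leaving out each pair. Genes called at an adjusted p-value under 0.05 numbered 0 in the fit reported, 8 with no replicate block, 380 with DESeq2, 11 with the filter of 1 count, 4 with that of 50 counts and 0 to 4 without a pair. Without the block 421 genes reached an unadjusted p-value under 0.05 and 1 of the 9 genes did (Sxl), against 869 and 2 with it. Leaving out a pair gave 529 to 756 genes and 0 to 2 of the 9, the lowest of both without pair 2 (529 genes and 0 of the 9), and 1 of the 9 without pair 3. The 26 named genes kept their direction except in 8 cases. These were Yp3 with no replicate block (-0.56), msl-2 without pair 1 (-0.61), tra2 (-0.07) and ix (0.12) without pair 2, and tra (0.02), mof (-0.02), Clamp (-0.12) and ix (0.01) without pair 3; the cause was not tested. Leaving out a pair gave -0.06 to 0.02 for tra, -0.61 to 0.66 for msl-2, -0.02 to 1.37 for mof, -0.12 to 0.55 for Clamp, -0.07 to 0.41 for tra2, -0.15 to 0.12 for ix, 0.07 to 0.32 for fru, -0.81 to -0.23 for lncRNA:roX2, -4.04 to -0.84 for dsx and -0.14 to -0.04 for snf. DESeq2 newly called 4 of the 26: Sxl, lncRNA:roX1, emc and Hrb27C. The block changed no call of a named gene in edgeR. The X-linked minus autosomal difference stayed between 0.001 and 0.032 in fold change, and between 0.038 and 0.116 per library. The biological coefficient of variation was 58.3%, and dsx, with at most 111 reads, was removed by the filter of 50 counts.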

Other observations

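The genes in this paragraph, from the list of partners and targets of Doublesex and Fruitless, were chosen after their values were seen. The nuclear receptor gene dsf, needed for sexual behaviour, was at 5.20, 2.72 and 1.77 CPM in the controls of pairs 1 to 3, against 0.0332, 0.761 and 0.0684 CPM in their knockdown partners, so the groups did not overlap, as was the case for 11.6% of the tested genes. Its log2 fold change was -4.41 (SE 1.78, unadjusted p = 0.053, adjusted p = 0.509, edgeR), and DESeq2 called it (adjusted p = 0.0489). The Prp3-RNAi libraries held 1, 24 and 2 reads of it. HDAC1, a histone deacetylase gene, did not overlap between groups either, at 70.7 ± 8.73 CPM in controls and 51.9 ± 9.01 CPM with the hairpin (SD, n = 3 each; log2 fold change -0.46, SE 0.18, adjusted p = 0.501, edgeR). The retn gene, a transcription factor gene that acts in courtship behaviour, had between 0 and 64 reads in the 6 libraries.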
